A study of Homo sapiens with 11 samples.

Results

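The genes that encode collagen chains were examined in xenograft tumours labelled BT-474. Members were all gene symbols that start with COL and consist of a collagen type number, the letter A and a chain number, which gave 44 of 28152 symbols in the count table. RNA sequencing covered 11 libraries at day 33, 6 from vehicle tumours and 5 from tumours of mice given evexomostat (SDX-7320), an inhibitor of the enzyme methionine aminopeptidase 2, at 12 mpk. All hosts were female athymic nude mice with an estradiol pellet of 0.72 mg (made to last 90 days), and tumour cells were placed in the mammary fat pad in 50% Matrigel, a basement membrane extract that itself contains collagen protein. Treatment began once tumours exceeded 95 cubic millimetres and was given under the skin every 4 days. Vehicle was 5% mannitol in water, which also carried the drug. BT-474 is an established human breast cancer line, and all libraries are labelled as this line in such hosts. Athymic nude mice lack mature T cells but keep fibroblasts, vessels and macrophages, so tumour RNA can hold mouse transcripts. How mouse reads were treated is not given in the sources used here, so each collagen count may include reads of the mouse gene. The labels give no animal identifiers, so p-values measure the spread between these libraries.

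Collagens are extracellular proteins built from 3 chains wound into a helix, with glycine at regular intervals. Fibrillar collagens form the tensile fibres of stroma, type IV forms the network of basement membranes, and type VI forms beaded filaments around cells. The FACIT group sits on fibril surfaces, the multiplexins lie near basement membranes, and a few collagens are anchored in cell membranes. In breast tumours most fibrillar collagen is thought to come from fibroblasts, while carcinoma and endothelial cells also make basement membrane chains.

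Type IV genes lie in head-to-head pairs whose starts face away from each other, and 2 of the 3 pairs held members with p-values under 0.05, so their start regions are shown first. In RefSeq's GRCh38.p14 annotation the start sites of COL4A1 and COL4A2 on chromosome 13 lie 127 bases apart, those of COL4A4 and COL4A3 on chromosome 2 lie 419 apart, and those of COL4A6 and COL4A5 on chromosome X lie 380 apart. The windows below run from 250 bases before to 50 bases after the start of the named gene. The first is chr13:110307108-110307407 on the minus strand and the second is chr2:227164374-227164673 on the plus strand. The COL4A1 window also holds the start site of COL4A2. Capitals mark matches on either strand to GGGCGG (a GC box) or CCAAT, motifs that share no bases in these windows.
COL4A1: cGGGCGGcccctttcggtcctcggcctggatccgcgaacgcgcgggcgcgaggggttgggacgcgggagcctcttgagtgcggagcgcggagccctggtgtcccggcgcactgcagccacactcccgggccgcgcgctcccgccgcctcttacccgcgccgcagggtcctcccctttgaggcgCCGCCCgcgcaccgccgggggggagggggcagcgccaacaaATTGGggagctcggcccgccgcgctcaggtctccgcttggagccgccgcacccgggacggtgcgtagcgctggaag
COL4A3: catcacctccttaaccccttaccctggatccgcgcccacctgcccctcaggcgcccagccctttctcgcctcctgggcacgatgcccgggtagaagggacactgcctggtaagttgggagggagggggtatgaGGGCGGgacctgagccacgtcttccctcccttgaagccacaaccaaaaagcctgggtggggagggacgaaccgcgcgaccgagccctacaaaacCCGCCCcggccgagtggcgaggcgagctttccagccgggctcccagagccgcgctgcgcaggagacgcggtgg
Each window holds 2 matches to GGGCGG, a motif present in 45% of 35116 RefSeq windows of this length. The COL4A1 window also has 1 match to CCAAT, which 34.6% of the windows hold, and the COL4A3 window has 0. A match describes the letters only. Windows were found for 32 of the 44 members.

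Library totals ranged from 22808033 to 39249329 counts, at which 3 counts equal 0.0764 to 0.132 RPM (counts scaled to a common library total, as the authors deposited them), for counting error only. Vehicle replicate 001 stood apart. For each doubling of transcript length its levels deviated by -0.21 (log2), while the slopes of the remaining vehicle libraries were 0.02 to 0.06 and those under evexomostat -0.05 to 0.04. Its slope on GC content was -0.26 (log2 per 10 percentage points). The longest transcripts of the 37 members that were tested had a median of 6466 bases, against 3218 for all tested genes. Vehicle replicate 001 was the lowest vehicle library in 13 of these 37 members (35.1%), and in 33.4% of all tested genes. Transcripts of the hormone receptors in the line's label were near 0, with at most 17 counts of ESR1 and 5 of PGR in any library, and ERBB2 averaged 53.7 RPM. Only the submitters' labels tie these libraries to BT-474.

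Collagen transcripts were abundant, and a few classes held nearly all of them. Members took up 0.254% to 0.980% of the counts in a library. Of the 44, 32 had a mean of at least 1 RPM and 14 of at least 100 RPM, while 1 (COL11A2) had 0 counts in every library. Beaded filament chains made up 36.1% of all collagen RPM, fibrillar chains 29.5%, FACIT chains 13.99%, basement membrane chains 10.1%, the anchoring fibril chain COL7A1 5.37% and multiplexins 4.38%. Transmembrane chains (0.441%), hexagonal network chains (0.124%) and the unclassed chains COL26A1 and COL28A1 (0.0132%) supplied the rest. These shares of RPM are not corrected for transcript length.

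**Figure D1:**
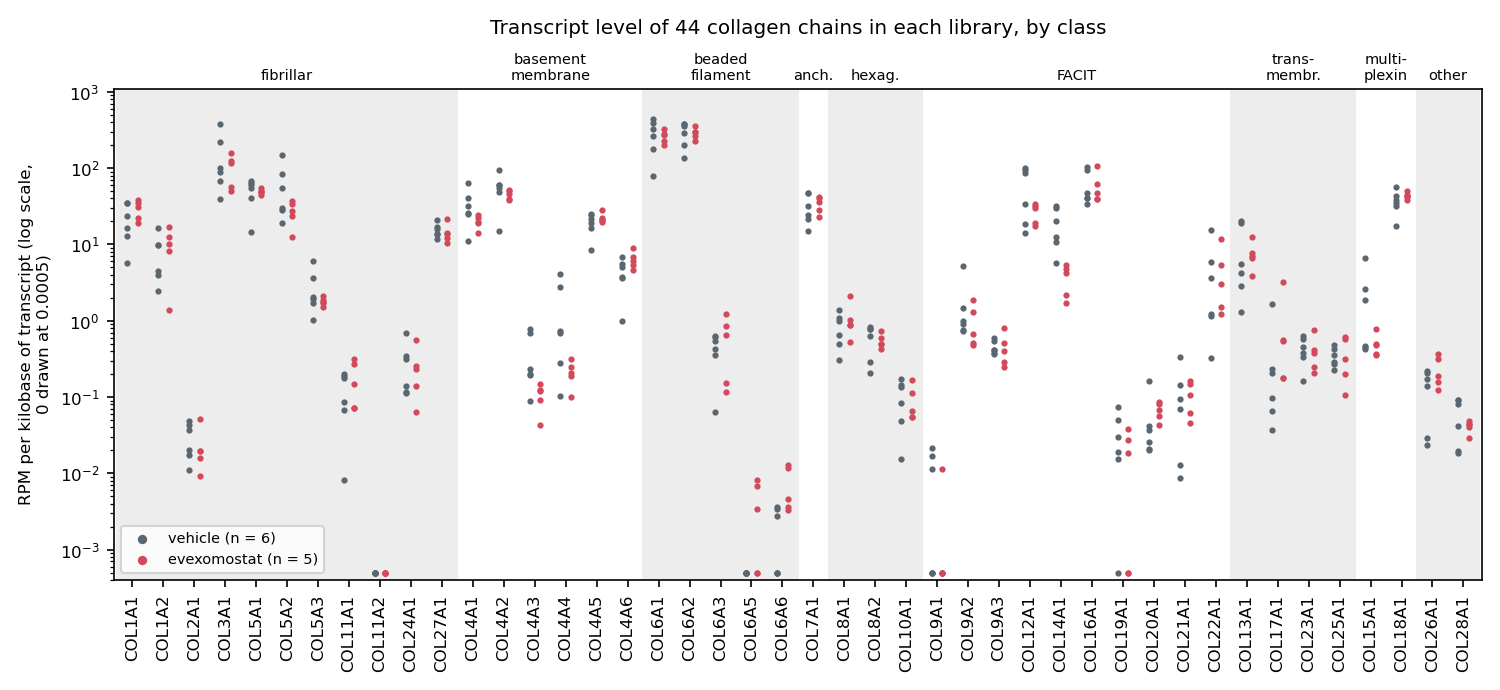
Level of each of the 44 collagen chains in each library, in RPM per kilobase of transcript on a log axis, with vehicle in grey (n = 6) and evexomostat in red (n = 5); shading separates the classes. COL6A2 and COL6A1 have the highest means, and the 5 chains COL6A5, COL6A6, COL9A1, COL19A1 and COL11A2 are lowest, with values of 0 drawn at the lower edge.

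Type VI collagen led in level per length. COL6A2 averaged 289.7 RPM per kilobase over 11 libraries and COL6A1 271.8, followed by the fibrillar chain COL3A1 at 126.6. Among all symbols, COL6A1 ranked 77 and COL6A2 83 by mean RPM. COL6A3, the third chain of the common type VI heterotrimer, averaged 0.512 RPM per kilobase, and COL6A5 and COL6A6 had at most 2 and 4 counts in any library. COL6A1 and COL6A2 are neighbours on chromosome 21, and these 2 were the high chains of type VI.

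Among fibrillar collagens 8 of 11 chains had a mean of at least 1 RPM. COL3A1, the chain of thin reticular fibres, was followed by COL5A1 (49.9 RPM per kilobase) and COL5A2 (45.3), chains of type V collagen, which regulates fibril diameter. The type I chains COL1A1 (24.9) and COL1A2 (8.73) stood above and below COL27A1 (15.01), a cartilage-associated collagen. COL5A3 averaged 2.31, COL24A1 0.270 and COL11A1 0.146 RPM per kilobase. COL2A1, the main cartilage collagen, reached at most 8 counts in a library. With 0 counts, COL11A2 was below the 0.0764 to 0.132 RPM that 3 counts represent.

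All 6 type IV chains were detected. COL4A2 averaged 50.9 RPM per kilobase, COL4A1 27.0, COL4A5 20.6 and COL4A6 5.25, and COL4A4 (0.876) and COL4A3 (0.246), best known from the kidney glomerulus, were the lowest. COL7A1, which forms the anchoring fibrils of skin, averaged 32.4 RPM per kilobase. Of the multiplexins, COL18A1, the precursor of endostatin, averaged 40.1 and COL15A1 1.36.

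FACIT chains ranged over several orders of magnitude. COL16A1 averaged 59.2 RPM per kilobase, COL12A1 43.4, COL14A1 11.7, COL22A1 4.58, COL9A2 1.35 and COL9A3 0.452. COL21A1, COL20A1, COL19A1 and COL9A1 were all at or below 0.108. In the transmembrane class COL13A1 was highest at 8.26 RPM per kilobase, and COL17A1 of hemidesmosomes (0.631), COL23A1 (0.413) and COL25A1 (0.349) were low. The hexagonal network chains COL8A1, COL8A2 and COL10A1, the last a marker of hypertrophic cartilage, averaged 0.939, 0.569 and 0.0958.

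Vehicle tumours differed widely from each other in total collagen. Summed over all members, the TMM-scaled level (given as CPM; TMM assumes that most genes do not differ between libraries) was 2950 in vehicle replicate 001, 4562 in 003, 9755 in 004, 4615 in 005, 6982 in 006 and 7703 in 007. Under evexomostat the sums were 4251 in replicate 002, 5567 in 003, 5180 in 004, 5417 in 005 and 4130 in 007. The evexomostat sums all lay within the range of the vehicle sums, and replicates 004, 006 and 007 of vehicle exceeded each of them. Vehicle replicates 004 or 007 were the highest vehicle library in 20 of the 37 tested members (54.1%), and in 29.4% of all tested genes. The standard deviation of log2 CPM was larger under vehicle in 29 of 37 members (78.4%), close to the 81.0% of all tested genes. Without vehicle replicate 001 these figures were 30 of 37 (81.1%) and 63.0%.

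**Figure D2:**
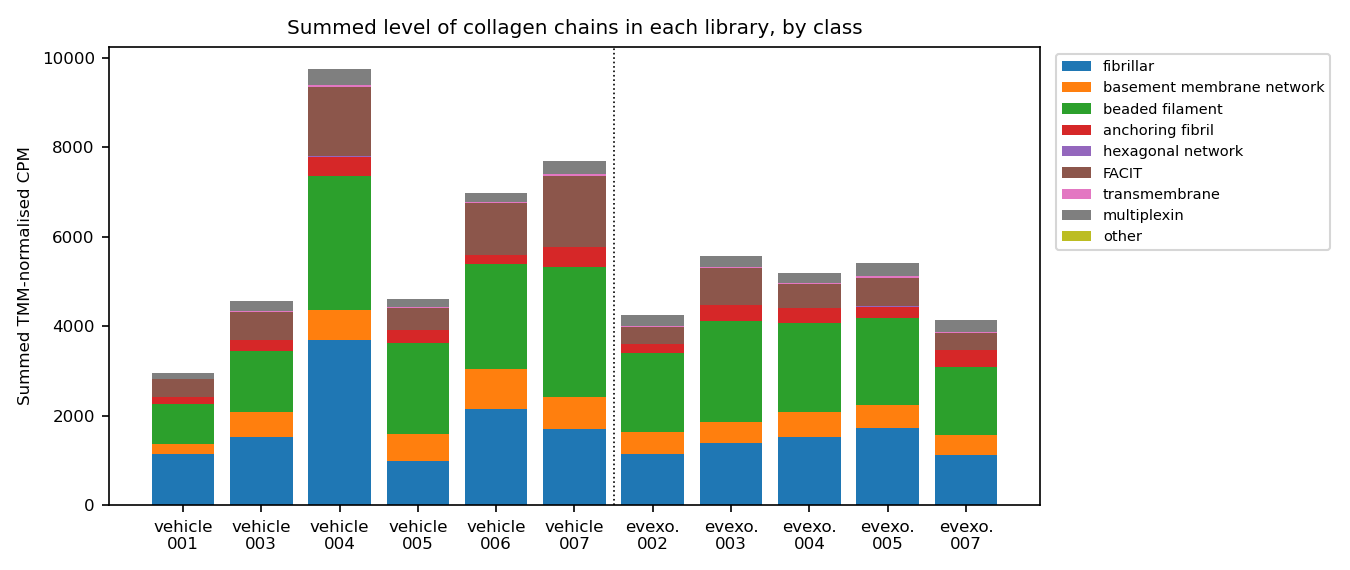
Summed TMM-normalised CPM of collagen chains in each library, stacked by class, with vehicle libraries left and evexomostat libraries right of the dotted line. Vehicle sums span 2950 to 9755 CPM and evexomostat sums 4130 to 5567 CPM, and the beaded filament and fibrillar classes form the largest blocks in each bar.

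By class the groups overlapped as well. The FACIT sum was 386.2 to 1573 CPM under vehicle (median 896.8) and 371.1 to 837.9 CPM under evexomostat (median 530.1). Fibrillar sums had medians of 1610.1 CPM under vehicle and 1381 CPM under evexomostat, beaded filament sums 2186 and 1948 CPM, and basement membrane sums 650.1 and 495.0 CPM. Multiplexin sums had medians of 221.0 and 248.5 CPM, and those of COL7A1 were 262.1 and 321.2 CPM. These sums are descriptions without a test.

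The main comparison asked which collagen chains differed between evexomostat and vehicle tumours. COL14A1 was lower under evexomostat, by 5.45-fold, and was the 1 member past the threshold of 0.05 on the adjusted p-value. The test was edgeR's quasi-likelihood test on all genes with Benjamini-Hochberg adjustment. Of 37 tested members, 1 was called, against 0.606% of the 16653 tested genes (0.432% called lower and 0.174% called higher). The other 7 members did not pass the filter on low counts. An unadjusted p under 0.05 was reached by 7 of 37 members (18.9%), all with lower levels under evexomostat, against 13.4% of all tested genes, 8.55% with lower and 4.82% with higher levels. The 7 were COL14A1, COL12A1, COL15A1, COL5A2, COL4A1, COL4A3 and COL4A4. In all, 25 of the 37 log2 fold changes (67.6%) lay below 0, against 55.4% of all tested genes, with a median of -0.17 for members and -0.04 for all genes. Absolute values above 1 were found in 7 members and in 3.76% of all tested genes.

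**Figure D3:**
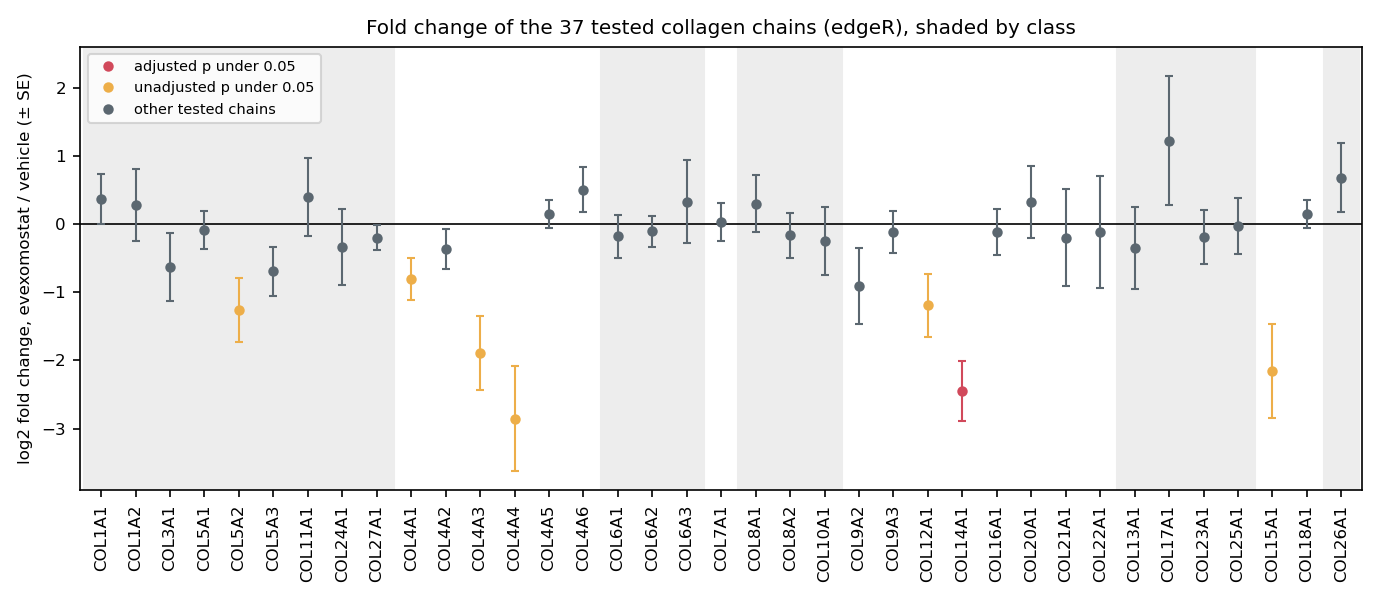
Log2 fold change of the 37 tested collagen chains (evexomostat against vehicle, edgeR) with its standard error, in order of class. COL14A1 (red) passed the adjusted threshold at -2.45, and the 6 chains in yellow had an unadjusted p under 0.05 with values from -0.81 to -2.85.

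COL14A1 encodes a FACIT collagen that binds fibrils through decorin and regulates their diameter. Its level under vehicle was 32.3 CPM in replicate 001, 99.4 in 003, 152.5 in 004, 52.4 in 005, 57.2 in 006 and 150.3 in 007. Under evexomostat it was 10.4 CPM in replicate 002, 20.9 in 003, 19.7 in 004, 24.3 in 005 and 8.02 in 007. Every evexomostat library was below every vehicle library, and COL14A1 was the 1 tested member of 37 whose groups did not overlap, against 2.97% of all tested genes (1.64% with evexomostat lower). The means were 90.7 ± 51.9 CPM (SD, n = 6) and 16.7 ± 7.08 CPM (SD, n = 5), which is a log2 difference of -2.45 ± 0.44 (SE; edgeR adjusted p = 0.0308). The call passed the threshold in 13 of 23 other settings and the fold change stayed negative in all 23, between -2.18 and -2.65. It was lost when vehicle replicates 003, 004 or 007 or any of the 5 evexomostat libraries was left out, with edgeR adjusted p-values of 0.0503 to 0.108. It was also lost with log2(RPM + 0.1) and with a replicate block, at adjusted p-values of 0.0516 (limma) and 0.0646 (edgeR).

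Markers of several cell types were summed over lists to set beside this change. In bulk tissue fewer cells of a type and less RNA per cell cannot be told apart. Whether these counts came from mouse host cells or from human tumour cells cannot be told apart either. The fibroblast list of 10 genes summed to 61.2 to 189.9 CPM under vehicle and 61.2 to 123.8 CPM under evexomostat, and 0 of its 8 tested genes were called. The list was uneven, with PDGFRB at 26.7, POSTN at 21.6, FAP at 20.4 and DPT at 16.8 RPM on average, and lower mean levels of 0.390 RPM for DCN, 1.05 for LUM and 1.45 for PDGFRA. The list of pericytes and smooth muscle summed to 184.5 to 1214 CPM under vehicle and 306.7 to 374.2 CPM under evexomostat, and 0 of 6 genes were called. NOTCH3, which makes up most of this sum, was at 718.3 ± 346.3 CPM (SD, n = 6) and 317.2 ± 29.9 CPM (SD, n = 5), with an edgeR adjusted p of 0.153. It averaged 534.9 RPM, while the rest of the list averaged 3.89 (ACTA2) to 9.75 RPM (CSPG4), with RGS5 at 4.13. CNN1, a smooth muscle gene with the smallest p of that list, lay the other way, at 1.16 ± 1.12 CPM (SD, n = 6) and 8.18 ± 5.10 CPM (SD, n = 5), a log2 difference of 2.83 ± 0.62 (SE; edgeR adjusted p = 0.0665). Without vehicle replicate 001 both were called, NOTCH3 lower (edgeR adjusted p 0.00540) and CNN1 higher (0.0323). In that fit 5.22% of all tested genes were called, against 0.606% in the main fit. Endothelial genes summed to 10.8 to 22.7 and 10.1 to 14.3 CPM, with CDH5 at no more than 2 counts, and leukocyte genes to 81.8 to 121.1 and 89.3 to 102.3 CPM, with 0 of 5 and 0 of 6 tested genes called. Adipocyte genes summed to 0.343 to 1.98 and 0.311 to 2.71 CPM (0 of 2 called), and ADIPOQ had 0 counts in all libraries. Skeletal muscle genes summed to 1.69 to 17.9 CPM under vehicle and, under evexomostat, to 1.64 CPM in replicate 002, 18.5 in 003, 46.9 in 004, 383.4 in 005 and 4.57 in 007. Of the 5 tested muscle genes 0 were called. An unadjusted edgeR p under 0.05 with higher values under evexomostat was found for 4, against 4.82% of all tested genes. The median log2 difference of the 5 was 3.48. The untested CKM, MYL1 and TNNT3 had at most 10, 2 and 10 counts in a library. Mean levels under vehicle and evexomostat were 0.166 and 0.174 CPM for CKM, 0.0162 and 0 for MYL1, and 0.126 and 0.0318 for TNNT3. Luminal breast genes (0 of 9 called) summed to 343.7 to 790.8 and 475.2 to 600.3 CPM, mostly from KRT8 (331.6 RPM), KRT18 (148.6) and ERBB2 (53.7). The other luminal genes were lower, from PGR at 0.0655 RPM through CDH1 at 0.456, KRT19 at 0.803, FOXA1 at 1.05 and EPCAM at 3.03 to GATA3 at 6.50. Their part in the collagen values was not tested.

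COL12A1, the other abundant FACIT collagen of type I fibrils, ranged under vehicle from 157.6 to 919.3 CPM with a median of 599.6. Under evexomostat it was 166.1 CPM in replicate 002, 285.4 in 003, 275.6 in 004, 311.3 in 005 and 184.4 in 007. Vehicle replicates 003, 004, 006 and 007 lay above all evexomostat libraries, 005 lay among them and 001 lay below all of them. The log2 difference, -1.19 ± 0.46 (SE; edgeR adjusted p = 0.276), did not pass the threshold. COL16A1, the highest FACIT chain per kilobase though not in CPM, had medians of 206.9 CPM under vehicle and 215.3 CPM under evexomostat, a log2 difference of -0.12 ± 0.34 (SE; edgeR adjusted p = 0.924). Of 8 tested FACIT chains, 7 had values below 0, against 55.4% of all tested genes. Among the 7, COL16A1, COL22A1, COL9A3 and COL21A1 were at -0.12, -0.12, -0.11 and -0.20.

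COL15A1, a multiplexin of the outer basement membrane zone, ranged under vehicle from 2.34 to 37.7 CPM around a median of 6.44. Evexomostat libraries had 1.92 CPM in replicate 002, 2.47 in 003, 2.57 in 004, 4.07 in 005 and 1.96 in 007. The 3 vehicle libraries 004, 006 and 007 lay above all of these and the other 3 among them. The log2 difference was -2.16 ± 0.69 (SE; edgeR adjusted p = 0.190), which was -1.30 without vehicle replicate 007 and -1.14 on log2(RPM + 1). COL18A1, the other multiplexin, averaged 224.3 ± 73.5 CPM (SD, n = 6) under vehicle and 249.1 ± 23.2 CPM (SD, n = 5) under evexomostat, a log2 difference of 0.15 ± 0.21 (SE; edgeR adjusted p = 0.826).

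**Figure D4:**
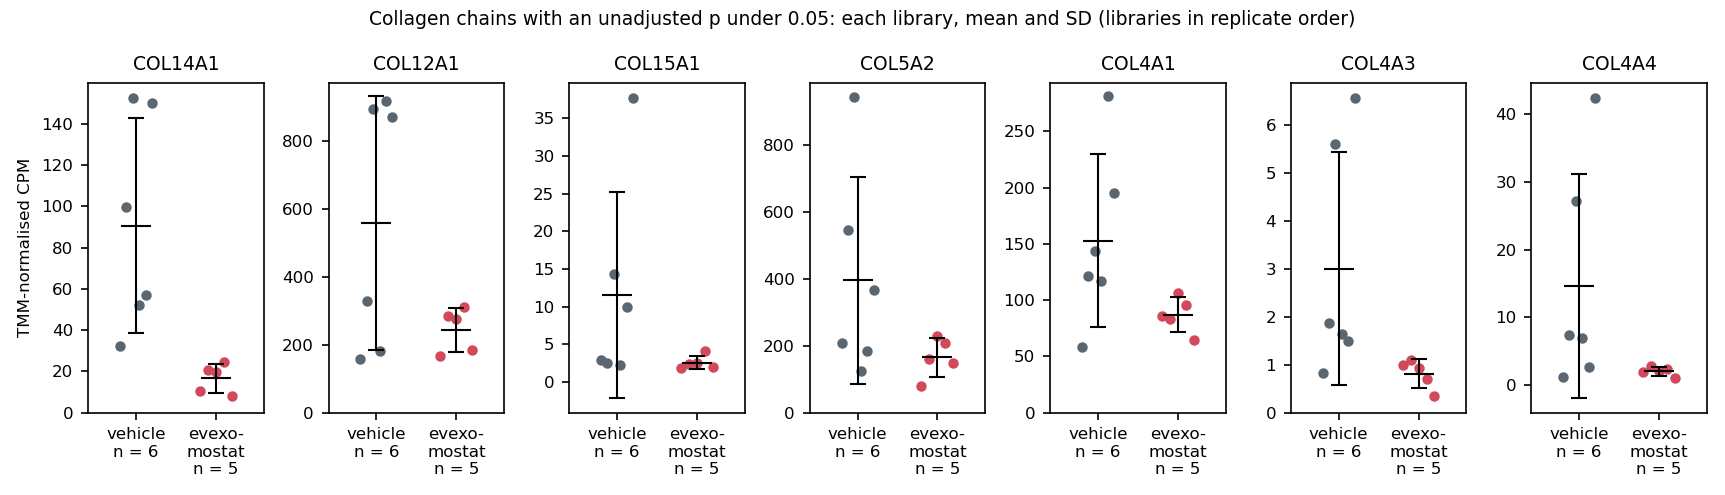
TMM-normalised CPM of the 7 collagen chains with an unadjusted p under 0.05 in each library, with the group mean and SD; each panel has its own linear axis. The 5 evexomostat values of COL14A1 (8.02 to 24.3 CPM) lie under all 6 vehicle values, and in the other 6 panels the groups overlap.

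Among fibrillar chains COL5A2 had the lowest p-value. Vehicle libraries spanned 124.5 to 941.9 CPM (median 287.5), and evexomostat libraries had 80.4 CPM in replicate 002, 160.0 in 003, 228.2 in 004, 207.9 in 005 and 149.4 in 007. All 5 evexomostat values were under the vehicle median, and 3 vehicle values exceeded all of them. In the fit it differed by -1.26 ± 0.47 (SE; edgeR adjusted p = 0.259) on the log2 scale. COL5A1, which joins COL5A2 in type V collagen, was at 429.9 ± 162.5 CPM (SD, n = 6) and 405.0 ± 37.4 CPM (SD, n = 5), a log2 difference of -0.09 ± 0.27 (SE; edgeR adjusted p = 0.936).

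Type I and III chains did not pass the threshold. COL1A1 was at 38.996 to 234.3 CPM under vehicle and 120.0 to 244.9 CPM under evexomostat, a log2 difference of 0.37 ± 0.37 (SE; edgeR adjusted p = 0.738). COL1A2 spanned 12.7 to 77.7 CPM and 6.27 to 79.9 CPM, with a difference of 0.28 ± 0.53 (SE; edgeR adjusted p = 0.884). COL3A1 was highest in vehicle replicate 004 (1749.6 CPM), where the next vehicle library had 988.6 CPM and the lowest 186.0 CPM, and it spanned 238.2 to 707.5 CPM under evexomostat. The log2 difference of COL3A1 was -0.63 ± 0.50 (SE; edgeR adjusted p = 0.653), and -0.01 with the replicate block. COL5A3 and COL27A1 differed by -0.69 and -0.20, and the low chains COL24A1 and COL11A1 by -0.34 and 0.40, with adjusted p-values of 0.427 to 0.861 in edgeR. The groups of these 7 chains overlapped.

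The type IV chains are given by gene pair. COL4A4 ranged under vehicle from 1.21 CPM in replicate 001 to 42.4 CPM in replicate 007, with a median of 7.19. Evexomostat libraries had 1.89 CPM in replicate 002, 2.87 in 003, 2.03 in 004, 2.38 in 005 and 0.995 in 007. Vehicle replicates 003, 004, 005 and 007 were above all of them. The log2 difference came to -2.85 ± 0.78 (SE; edgeR adjusted p = 0.124). Without vehicle replicate 007 it was -2.17, on log2(RPM + 1) it was -1.59 and on log2(RPM + 0.1) it was -1.85.

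COL4A3, its head-to-head partner, ranged from 0.824 to 6.57 CPM under vehicle (median 1.76). Under evexomostat it was 0.993 CPM in replicate 002, 1.09 in 003, 0.941 in 004, 0.695 in 005 and 0.342 in 007. Vehicle replicate 001 was the only vehicle value below an evexomostat value. For COL4A3 the log2 difference was -1.89 ± 0.54 (SE; edgeR adjusted p = 0.137). It was -0.91 on log2(RPM + 1) and -1.39 on log2(RPM + 0.1). The 6 vehicle libraries had the same order in both genes, from replicate 001 through 006, 005, 003 and 004 to 007. The window printed above for COL4A3 ends short of the start of COL4A4. Both genes are low, with at most 196 counts of COL4A3 and 1155 of COL4A4 in a library.

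COL4A1 ranged under vehicle from 58.6 CPM in replicate 001 to 281.7 in 006, with a median of 132.3. Under evexomostat it was 86.1 CPM in replicate 002, 83.4 in 003, 106.2 in 004, 95.4 in 005 and 64.8 in 007. The other 5 vehicle libraries were above all evexomostat libraries. COL4A1 differed by -0.81 ± 0.31 (SE; edgeR adjusted p = 0.267) on the log2 scale. COL4A2, which shares its start region, was at 289.4 ± 121.0 CPM (SD, n = 6) and 224.9 ± 32.1 CPM (SD, n = 5), a log2 difference of -0.36 ± 0.30 (SE; edgeR adjusted p = 0.659).

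COL4A5 and COL4A6, the pair on the X chromosome, differed by 0.15 ± 0.21 (SE; edgeR adjusted p = 0.819) and 0.51 ± 0.33 (SE; edgeR adjusted p = 0.569) on the log2 scale. COL4A5 was at 63.0 to 163.7 CPM under vehicle and 123.6 to 169.4 CPM under evexomostat. COL4A6 was at 7.61 to 44.5 CPM and 28.8 to 57.1 CPM. In both genes vehicle replicate 001 was the lowest of the 11 libraries.

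Leaving out vehicle replicate 001 gave 3 called type IV chains in place of 0. Without it 4 of 37 members were called (COL14A1, COL4A4, COL4A3 and COL4A1, all lower under evexomostat), while 865 of 16565 genes were called (5.22%, and 3.24% lower). The log2 differences were then -2.62 for COL14A1, -3.09 for COL4A4, -2.07 for COL4A3 and -0.97 for COL4A1, with edgeR adjusted p-values of 0.00834, 0.0254, 0.0337 and 0.0347. COL12A1, COL15A1 and COL4A2 stood at 0.0625, 0.0605 and 0.0627 in the same fit. Leaving out any other library called no type IV chain. With length and GC offsets on all libraries, COL4A4, COL4A3 and COL4A1 were not called (edgeR adjusted p 0.111, 0.127 and 0.205). COL4A3 and COL4A4 were called with DESeq2, with quality weights in limma-voom and in the 8 libraries with shared numbers without a block. Quality weights also called COL4A1.

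Type VI, the most abundant collagen, showed no change past the threshold. COL6A1 averaged 1065 ± 503.4 CPM (SD, n = 6) under vehicle and 940.0 ± 148.1 CPM (SD, n = 5) under evexomostat, differing by -0.18 ± 0.32 (SE; edgeR adjusted p = 0.873) on the log2 scale. COL6A2 was at 1021 ± 334.7 CPM (SD, n = 6) and 949.2 ± 124.8 CPM (SD, n = 5), differing by -0.11 ± 0.23 (SE; edgeR adjusted p = 0.900). COL6A3 spanned 0.530 to 6.20 CPM and 0.993 to 10.2 CPM, with a log2 difference of 0.33 ± 0.61 (SE; edgeR adjusted p = 0.879), and 0.93 with quality weights in limma-voom. The sign of COL6A1 and COL6A2 was positive on log2(RPM + 1), at 0.08 and 0.06.

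COL7A1 was at 161.8 to 458.5 CPM under vehicle and 211.1 to 373.9 CPM under evexomostat, a log2 difference of 0.03 ± 0.28 (SE; edgeR adjusted p = 0.981). Transmembrane COL13A1 was at 2.87 to 45.9 CPM and 8.67 to 26.8 CPM, differing by -0.35 ± 0.60 (SE; edgeR adjusted p = 0.867). COL17A1 had the largest positive log2 difference of the 37, 1.23 ± 0.95 (SE; edgeR adjusted p = 0.642), and also the widest range. It ran from 0.200 CPM in vehicle replicate 004 to 16.3 CPM in evexomostat replicate 005, where the skeletal muscle genes were at 383.4 CPM. The next highest library, vehicle replicate 006, had COL17A1 at 8.61 CPM and skeletal muscle genes at 2.34 CPM. A link between them was not tested. COL8A1 and COL26A1, which led the hexagonal network and the unclassed chains by mean RPM, differed by 0.30 ± 0.41 (SE; edgeR adjusted p = 0.823) and 0.68 ± 0.51 (SE; edgeR adjusted p = 0.632) on the log2 scale. COL22A1, a FACIT chain of tissue junctions, varied 48.6-fold between libraries, from 1.75 CPM in vehicle replicate 003 to 85.2 in vehicle replicate 007, and differed by -0.12 ± 0.82 (SE; edgeR adjusted p = 0.976) on the log2 scale. COL27A1 varied least, by 1.95-fold.

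Partner chains were then compared within each library as ratios of RPM per kilobase. Library scaling cannot move these ratios, but a library's slope on length or GC content can. COL6A1 to COL6A2 was near 1, with medians of 0.896 under vehicle (0.582 to 1.16) and 0.901 under evexomostat (0.876 to 0.937). COL6A3 to COL6A1 had medians of 0.00147 and 0.00305 and did not exceed 0.00780. The values of 0.582 and 0.00780 both came from vehicle replicate 001. Type I collagen is known to contain more of the chain from COL1A1 than of that from COL1A2, and this ratio had medians of 2.98 under vehicle and 2.99 under evexomostat. It reached 14.1 in evexomostat replicate 003, where COL1A2 was at its lowest (6.27 CPM), against 1.43 to 5.35 in the other 10 libraries.

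The ratio of COL4A1 to COL4A2 was 0.451 to 0.735 under vehicle (median 0.604) and 0.370 to 0.505 under evexomostat (median 0.419), so the ranges met only between 0.451 and 0.505. COL5A1 to COL5A2 had medians of 0.943 (0.431 to 2.12) and 1.81 (1.21 to 4.33), and COL4A5 to COL4A6 of 4.74 (3.43 to 8.51) and 3.47 (2.50 to 5.33). Vehicle replicate 001, which stood apart in its length and GC slopes, gave the 0.735 of COL4A1 to COL4A2 and the 8.51. The next highest vehicle value of COL4A1 to COL4A2 was 0.684, in replicate 006. These ratios carry no test. Transcript lengths are medians of GENCODE 29 transcripts, so the absolute ratio depends on the annotated length, while its spread between libraries does not.

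**Figure D5:**
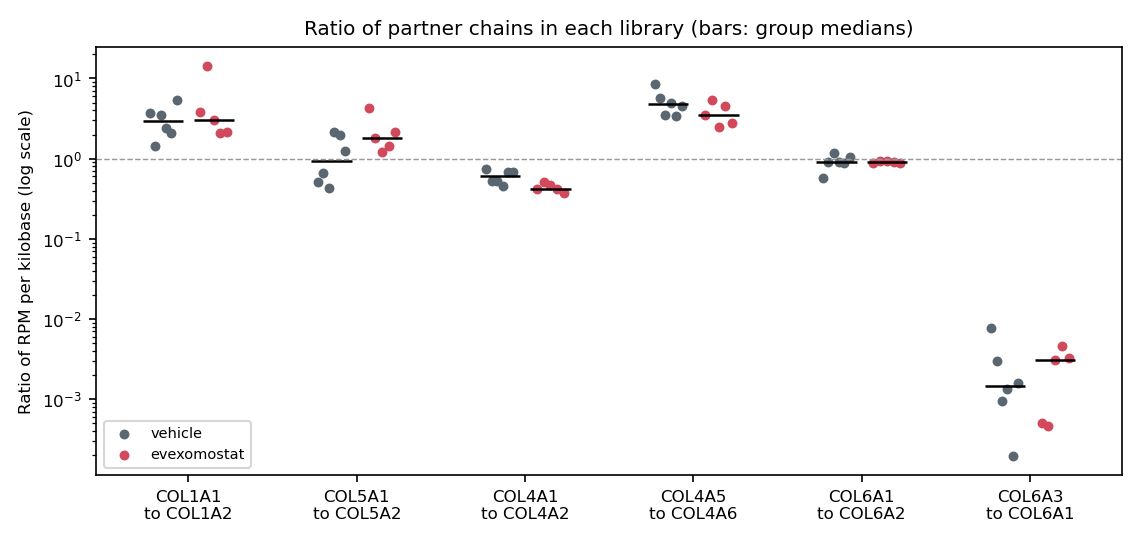
Ratio of partner collagen chains in each library, in RPM per kilobase on a log axis, with group medians as bars and equality as the dashed line. COL6A1 to COL6A2 lies near 1 and COL6A3 to COL6A1 at or below 0.00780 in all libraries, and the median of COL4A1 to COL4A2 is 0.604 under vehicle and 0.419 under evexomostat.

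Collagen chains need a set of enzymes and carriers, of which 59 genes were taken in 6 lists and 55 were tested. P4HA1, the catalytic subunit of a prolyl hydroxylase that stabilises the helix, was the 1 gene called, lower under evexomostat, from 128.0 ± 46.9 CPM (SD, n = 6) to 49.6 ± 6.19 CPM (SD, n = 5), a log2 difference of -1.37 ± 0.23 (SE; edgeR adjusted p = 0.0233). That is 1 of 55 genes (0 higher), beside the 0.606% given above. The lists were chosen with earlier results of these data known, so this share only describes them. The list of P4HA1, with 14 hydroxylases, glycosyltransferases and their partners, had 11 values below 0, against 55.4% of all tested genes. The median of that list was -0.21, against -0.04 for all genes. P4HA2 stood at -0.61 ± 0.21 (SE; edgeR adjusted p = 0.216). Folding and export genes such as SERPINH1, the collagen chaperone, and SEC23A of secretory vesicles had a median of -0.13 with 0 of 8 called. Processing and crosslinking enzymes (0 of 12 called) had a median of -0.12, and receptors (0 of 10) of -0.11. Among receptors DDR2, which binds fibrillar collagen, stood at -0.40 ± 0.15 (SE; edgeR adjusted p = 0.267). The receptor with the smallest p was GP6, a platelet collagen receptor, which lay the other way at 1.11 ± 0.29 (SE; edgeR adjusted p = 0.109). The degradation list (0 of 5 called) had 5 values above 0 and a median of 0.50, with MMP2, a gelatinase, at 0.65 ± 0.24 (SE; edgeR adjusted p = 0.251). Small leucine-rich proteoglycans (0 of 6 called) had a median of 0.57, and BGN, a fibril-binding proteoglycan, stood at 1.68 ± 0.65 (SE; edgeR adjusted p = 0.279).

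The authors' deposited table lists 2 of the 44 members with an adjusted p-value under 0.05, beside 0.952% of its 28152 genes. In the authors' deposited table COL14A1 has a log2 fold change of -2.35 and an adjusted p of 7.22e-06, and COL4A4 has -2.75 and 0.00884. COL4A3 and COL15A1 stand at adjusted p-values of 0.0535 and 0.0586 in the authors' deposited table. COL5A2, COL4A1 and COL12A1 are at 0.199, 0.364 and 0.239 in the authors' deposited table, with log2 fold changes of -1.17, -0.74 and -1.12.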

How the data were processed

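RNA from a frozen tumour portion was sequenced as paired-end reads, per the labels' protocols. The deposited count table holds whole-number counts per gene symbol, and the authors' RPM table equals those counts scaled to each column total (largest difference 2e-13). The authors' deposited comparison table holds log2 fold changes, p-values and adjusted p-values. The submitters' processing notes list bcl2fastq 2.17, STAR 2.7.5c, featureCounts, Subread and edgeR, and the builds GRCh37 and hg19, with no role for each. The gene annotation, whether strand was used and what was done with mouse reads are not given in the sources used here, so genes overlapping a collagen gene, or its mouse counterpart, could add counts.

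Columns were matched to libraries by the sample description. Genes were kept with filterByExpr (minimum count 10, minimum total 15), which left 16653 of 28152 symbols, scaled with TMM factors (0.86 to 1.08) and compared with edgeR 4.0.16 in R 4.3.3. Standard errors are those implied by the F statistic. Both groups use the numbers 003, 004, 005 and 007, whose deviations correlated at -0.29, 0.06, 0.04 and -0.12 across groups and were not taken to pair tumours. Lengths and GC content came from GENCODE 29 basic transcripts (94.6% of tested genes, all 44 members), and promoter sequence from RefSeq on GRCh38.p14, whose coordinates are not those of the files' build.

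Named members were those with a p-value under 0.05, the 8 highest by mean RPM, the highest of each class and the chains of 6 partner ratios, and the remaining members were added by class. Members and lists were chosen with earlier results of these data known. Other settings used DESeq2 1.42.0 and limma 3.58.1. The fits were tested on simulated counts with 200 changed genes. False calls were 0.73% of all calls with edgeR, 17.4% with DESeq2 and 1.2% to 2.16% in the other fits. Of 2-fold and 4-fold changes edgeR recovered 46.3% and 93.5%. The replicate block on 8 libraries recovered 13.9% and 72.8%. The descriptions of spread, of the order of libraries and of COL22A1, COL17A1 and COL27A1 were chosen after their values were seen.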

Additional observations from a re-analysis of the deposited data

Results flagged for a closer look

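Chance flags about 1 in 20 groups, and 46 groups of named members were examined for a library far from the rest. COL15A1 was the 1 case, at 37.7 CPM in vehicle replicate 007, where the next vehicle library had 14.3 CPM and the lowest 2.34 CPM. The gap was 0.662 of the range of the 6 vehicle libraries. Without vehicle replicate 007 the log2 fold change of COL15A1 was -1.30 instead of -2.16, and neither value passed the adjusted threshold.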

How the results depend on the processing

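The count of 1 called member, COL14A1, was also 1 with log2(RPM + 1), length and GC offsets, no filter, a filter at a mean log2 CPM of 1, limma-voom, and scaling by relative log expression or upper quartile. Log2(RPM + 0.1) and log2(RPM + 1), which use no TMM factors, moved the median of all genes from -0.04 to 0.10 and 0.08. DESeq2 called 3 members and quality weights in limma-voom 4, all lower, beside 649 and 1059 of all genes. With log2(RPM + 0.1) in limma-trend the count was 0, with COL14A1 at an adjusted p of 0.0516 and 3 members at an unadjusted p under 0.05. A replicate block on the 8 libraries with shared numbers called 0 members (8 at an unadjusted p under 0.05). The same 8 libraries with no replicate block called 3, all lower, COL14A1, COL4A3 and COL4A4. Of the 16588 genes tested in each fit, 107 were called with the block and 733 without it. The pairing by number changed COL14A1 to an adjusted p of 0.0646. Leaving out each library gave 0 to 4 called members, in total and lower, with 5 to 8 at an unadjusted p under 0.05. In these fits 1 to 865 of all genes were called, and the count of higher members was 0 in every setting. The median log2 fold change of tested members ranged from -0.29 to -0.03 with a library left out and from -0.25 to 0.05 in the other settings. It moved by less than the spread between libraries (0.244), but the main value of -0.17 is itself smaller than that spread. So the spread cannot show whether its sign is stable. The median lay above 0 with log2(RPM + 1) and log2(RPM + 0.1), at 0.02 and 0.05.

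No reversal of a single chain passed the threshold. COL5A1 was at 0.0551 with limma-voom and at 0.137 and 0.138 with the RPM pseudocounts of 1 and 0.1, where COL6A1 was at 0.0786 and 0.0789, COL6A2 at 0.0572 and 0.0573, COL16A1 at 0.0152 and 0.0154 and COL13A1 at 0.24 and 0.296. COL13A1 was at 0.236 with limma-voom and 0.372 with quality weights, and COL4A5 at -0.0465 with quality weights. With the replicate block and without it on the same libraries, COL4A5 was at -0.0218 and -0.0266, COL7A1 at -0.0983 and -0.136 and COL18A1 at -0.0173 and -0.0434. COL7A1 was at -0.0705 with length and GC offsets. With a library left out, COL5A1 ranged from -0.261 to 0.0283, COL6A3 from -0.0997 to 0.596, COL7A1 from -0.0901 to 0.197, COL8A1 from -0.0998 to 0.501, COL16A1 from -0.426 to 0.0871 and COL13A1 from -0.596 to 0.0463. The cause was not tested.
Without vehicle replicate 001 the 59 genes of the collagen assembly and turnover lists had 2 called, both lower (P4HA1 and P4HA2), and 0 higher. In that fit 5.22% of all tested genes were called, and 3.24% were called lower. Counting members from a mean of 0.1 RPM gave 39 in place of 32, and 7 of the 8 highest members per kilobase stayed among the 8 highest when the longest transcript was used.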
